A study of Homo sapiens with 11 samples.

Results

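SKP2 peaks that were called in HCT116 cells lacking RepID, but neither in HCT116 cells with intact RepID nor at a replication origin of the RepID-lacking cells, are described here. They were chosen by the called positions of SKP2 peaks and origins alone, as the regions of the RepID KO SKP2 list on chromosomes 1 to 22 that share no base with a SKP2 peak of WT cells or an origin of RepID KO cells. There were 6951 such KO-only non-origin peaks, which is 51.4% of the 13518 SKP2 peaks of RepID KO cells on these chromosomes (Wilson 95% confidence interval 50.6 to 52.3%). Another 4934 peaks (36.5%) were KO-only but lay at RepID KO origins, 356 (2.63%) were shared with WT outside origins, and 1277 (9.45%) were shared with WT at origins. All SKP2 ChIP-Seq and nascent-strand data of HCT116, a human colon carcinoma line, came from unsynchronized, untreated cultures with 1 sample per condition: SKP2 in RepID WT cells, SKP2 in RepID KO cells, and nascent strands in RepID KO cells. RepID had been disrupted with CRISPR-Cas9 at exon 8, and the labels call the nascent-strand sample a clone. Whether the SKP2 sample came from the same clone is not stated. For comparison there were 5 lists from U2OS, a human osteosarcoma line, again with 1 sample each and no treatment: nascent strands, CUL4A, H3K4me3 and H3K9me3 from RepID WT cells, and CDT2, which the deposited description assigns to cells that stably overexpress full-length FLAG-tagged RepID and the paper to WT cells. The origins of WT HCT116 were not analysed here, so WT peaks were also set against the origins of RepID KO cells. A SKP2 peak and a U2OS region at the same position mean that a region was called there in each of 2 cell lines.

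SKP2 is the F-box protein that brings phosphorylated substrates to SCF, the ubiquitin ligase built on CUL1. CRL4 is the related ligase built on CUL4A or CUL4B, for which CDT2 and RepID (PHIP, DCAF14) are substrate receptors of the DCAF family. Both ligases act on the licensing factor CDT1, whose removal keeps an origin from being licensed again within the same S phase. H3K4me3 marks active promoters and early replicating chromatin, and H3K9me3 marks heterochromatin and late replicating chromatin. A SKP2 peak away from every called origin is a place where an F-box protein was enriched on chromatin without a start site of nascent strands called at that position.

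The rule used the positions of WT SKP2 peaks and RepID KO origins, and the distances to them are given as a description. The nearest RepID KO origin lay at a median of 13763 bp (quartiles 4064 and 40884 bp, highest 799140 bp). The nearest WT SKP2 peak was further away, at a median of 78026 bp (quartiles 29684 and 177168 bp, highest 2809044 bp). Only 44 peaks (0.633%) lay within 1 kb of a WT SKP2 peak, whereas 423 (6.09%) lay within 1 kb of an origin and 2009 (28.9%) within 5 kb. More than 5 kb from both lay 4799 peaks (69.0%). Most of these peaks were thus not at the borders of the regions that excluded them.

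**Figure D1:**
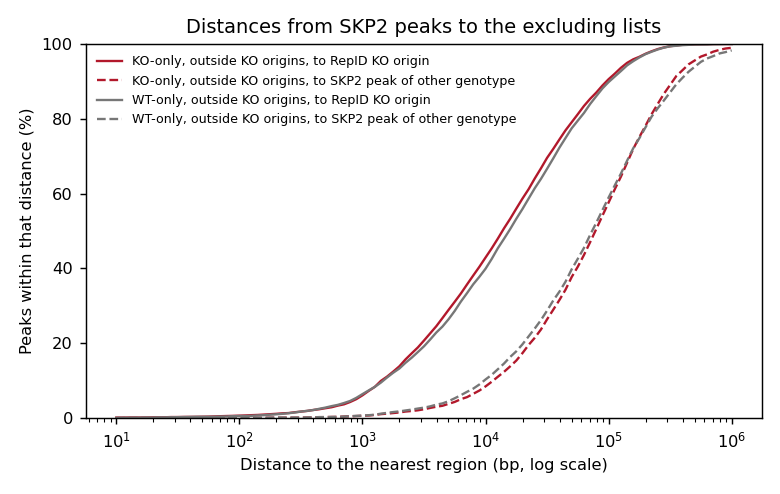
Percentage of SKP2 peaks (vertical axis) that lie within a given distance in bp (horizontal axis, log scale) of the nearest RepID KO origin (solid lines) or the nearest SKP2 peak of the other genotype (dashed lines), for KO-only (red) and WT-only (grey) peaks outside RepID KO origins. Both pairs of curves run close together, and the KO-only medians are 13763 bp to an origin and 78026 bp to a WT peak.

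Just inside the rule, a 249 bp peak on chromosome 17 from 71476752 to 71477000 touched an origin with 0 bases between, and a 240 bp peak on chromosome 12 from 54110404 to 54110643 ended 3 bp from an origin. Both lay in U2OS origins. Just outside it, a peak on chromosome 1 from 109633600 to 109633813 shared 1 bp with an origin, and a peak on chromosome 12 from 130231296 to 130231515 shared 1 bp with a WT SKP2 peak. Within 200 bp of the excluding lists there were 89 peaks (1.28%), and 416 of the 6567 peaks that the rule left out shared at most 200 bp with them.

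KO-only non-origin peaks were narrow and had low scores within the RepID KO list. Their median width was 339 bp (quartiles 247 and 614 bp, range 200 to 3024 bp), against 381 bp for KO-only peaks at origins. WT-only peaks outside RepID KO origins were as narrow, with a median of 331 bp (quartiles 247 and 580.75 bp). The score that the authors give each peak has no stated scale, so it was used only to rank peaks within a list. The median score was 297 (quartiles 247 and 385, range 185 to 2410). KO-only peaks at origins had a median of 426.5, peaks shared with WT outside origins 519, and peaks shared with WT at origins 1252. Above the median of the whole RepID KO list, 359.5, were 2135 KO-only non-origin peaks (30.7%), compared with 63.7% of the KO-only peaks at origins and 94.8% of the peaks shared with WT at origins. A score above 1048 was reached by 1351 of all RepID KO peaks and by 63 of the KO-only non-origin peaks (0.906%). Absence from the WT list and from origins thus went together with a low score, and whether a deeper library would change the set was not tested.

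The U2OS lists were not used by the rule. CDT2, the CRL4 receptor, met 669 of the 6951 KO-only non-origin peaks or 9.62% of them (8.95 to 10.3%, Wilson 95% confidence interval), where 16.9% of all RepID KO SKP2 peaks met it. CUL4A, the CRL4 scaffold, met 1082 peaks, 15.6% (14.7 to 16.4%), against 34.8% in the whole list. The share with H3K9me3 was 15.7% (1088 peaks, 14.8 to 16.5%), and 18.9% in the whole list. H3K4me3 met only 199 peaks, 2.86% (2.50 to 3.28%), against 6.63% in the whole list. A U2OS origin was found at 2923 peaks, 42.1% (40.9 to 43.2%), and at 56.8% of the whole list. KO-only non-origin peaks make up part of the whole list, so its shares are given for orientation and not as a test. All intervals describe counting error alone, as if neighbouring peaks were independent of each other.

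**Figure D2:**
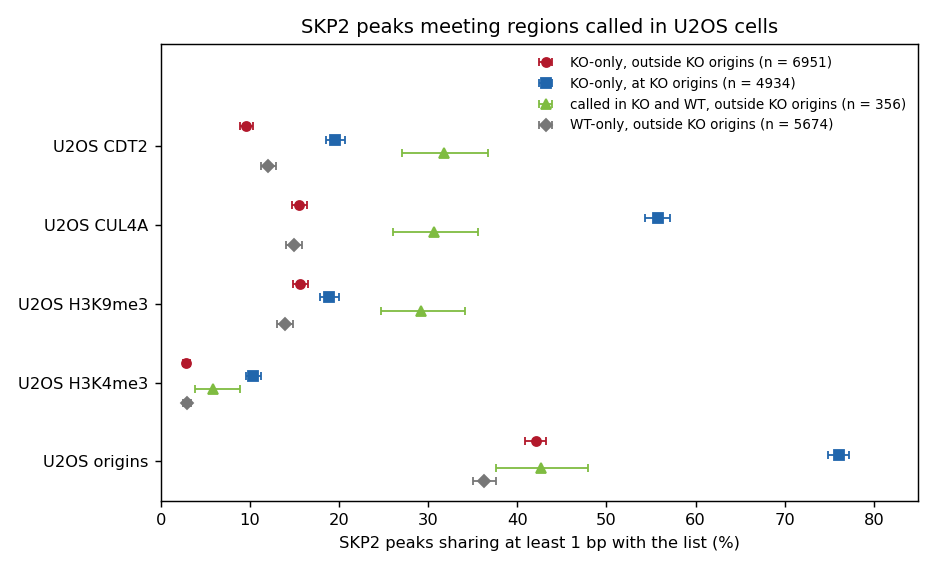
Percentage of SKP2 peaks that share at least 1 bp with each of the 5 U2OS lists (horizontal axis), for KO-only non-origin peaks (red circles), KO-only peaks at RepID KO origins (blue squares), peaks called in KO and WT cells outside origins (green triangles) and WT-only peaks outside RepID KO origins (grey diamonds). Bars are Wilson 95% confidence intervals. The red and grey points differ by at most 5.75 percentage points. The red ones lie to the left of the blue ones for each list, furthest for CUL4A and U2OS origins and least for H3K9me3.

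The overlaps were centred on the SKP2 peaks rather than spread over their surroundings, least so for H3K4me3. At the centre of KO-only non-origin peaks, 7.74% of positions were covered by CDT2 and 11.1% by H3K9me3. In the outermost 1 kb of the window of 10 kb on each side, coverage was 0.737% for CDT2 and 1.15% for H3K9me3, so the centre exceeded the surroundings by 10.5 and 9.66 times. CUL4A covered 15.2% of centres and 5.68% of the outermost 1 kb (2.68 times), and U2OS origins 40.4% and 16.3% (2.48 times). The overlaps were centred in the other sets as well. Around KO-only peaks at origins, the ratios for CDT2, H3K9me3, CUL4A and U2OS origins were 8.48, 7.66, 2.53 and 1.95. Around WT-only peaks outside RepID KO origins they were 13.3, 9.39, 2.60 and 2.15. For H3K4me3 around KO-only non-origin peaks the values were 2.30% and 2.02%, a ratio of 1.14. The curve had a narrow rise at the centre within a dip of a few kb on each side. In the dip, coverage was 1.05% at 1800 bp on the left and 1.06% at 1200 bp on the right, so the ratio understates the central rise. Around KO-only peaks at origins the H3K4me3 values were 8.98% and 4.58%, a ratio of 1.96. Around WT-only peaks outside RepID KO origins they were 2.61% and 1.80%, a ratio of 1.45. The narrow lists gave the higher ratios: median widths on these chromosomes were 554 bp for CDT2, 322 bp for H3K9me3, 1902 bp for H3K4me3, 2000 bp for CUL4A and 2400 bp for U2OS origins.

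**Figure D3:**
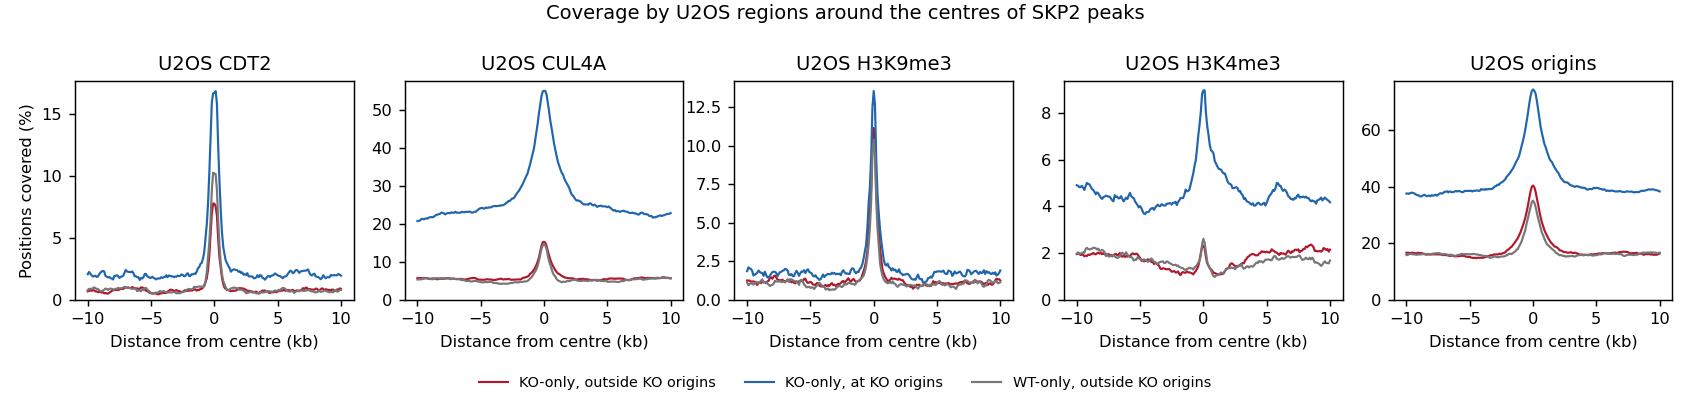
Percentage of positions covered by each U2OS list (vertical axes, which differ between panels) against the distance from the centre of SKP2 peaks in kb (horizontal axes), for KO-only non-origin peaks (red), KO-only peaks at RepID KO origins (blue) and WT-only peaks outside RepID KO origins (grey). CDT2 and H3K9me3 form sharp maxima at the centre, whereas H3K4me3 around the red peaks is 2.30% at the centre and 2.02% at 9 to 10 kb, with a dip between.

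Where a U2OS region met a KO-only non-origin peak, the narrow lists matched it closely. The centres of the SKP2 and CDT2 peaks were a median of 90.5 bp apart, and 351 of 669 pairs (52.5%) were within 100 bp. For H3K9me3 the median offset was 125.5 bp, and 486 of 1088 pairs (44.7%) were within 100 bp. Pairs with KO-only peaks at origins were similar, with 47.2% for CDT2 and 41.4% for H3K9me3 within 100 bp. CUL4A and U2OS origins instead enclosed the SKP2 peak: 87.8% of the peaks that met CUL4A and 84.0% of those that met a U2OS origin were covered over their whole length. The CDT2 peaks met had a median score of 29.6, near the median of that list (27.1), whereas those met by KO-only peaks at origins had a median of 37.6. The same held for CUL4A, with a median score of 65.0 at KO-only non-origin peaks and 174 at KO-only peaks at origins, in a list with a median of 62.0.

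Peaks with a higher SKP2 score colocalized more often with 4 of the 5 U2OS lists, and with H3K4me3 only at the highest scores. With the KO-only non-origin peaks ranked into 5 groups of near equal size, CDT2 met 38 of 1391 peaks (2.73%) where scores were lowest, from 185 to 238. In the group with scores of 414 to 2410, it met 305 of 1390 (21.9%, Wilson 95% confidence interval 19.8 to 24.2%). From the lowest to the highest group, the share with CUL4A went from 5.25 to 32.0%, that with H3K9me3 from 8.34 to 27.9%, and that with a U2OS origin from 26.9 to 64.2%. For H3K4me3 it was 2.44% in the lowest group, 2.52% in the next to highest and 4.53% in the highest. None of the 5 lists was met by 63.3% of the lowest and by 19.4% of the highest group. Width did not follow the same course: the median was 471 bp in the lowest group, 299.5 bp in the next to highest and 316.5 bp in the highest.

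Compared with KO-only peaks at RepID KO origins, KO-only non-origin peaks met all 5 lists less often when scores were left aside. The difference in share was -40.2 percentage points for CUL4A (15.6 against 55.8%) and -34.0 points for U2OS origins (42.1 against 76.0%). It was -9.97 points for CDT2 (9.62 against 19.6%), -7.47 points for H3K4me3 (2.86 against 10.3%) and -3.26 points for H3K9me3 (15.7 against 18.9%). For the ChIP-Seq lists, the Newcombe 95% intervals of these differences all left out 0, and the nearest to 0 was that for H3K9me3, from -4.65 to -1.88. With the stronger 50% of the H3K9me3 list, by the authors' fold enrichment, that difference was -0.132 points (-1.14 to 0.857). Both sets come from the same library, so these are differences between lists of regions and not between conditions. The sets were split by overlap with RepID KO origins, and U2OS origins share many positions with those, so the split itself lowers the U2OS origin share of the non-origin peaks. Its difference, here and at matched scores, is therefore a description. Non-origin peaks in U2OS origins also met each ChIP-Seq list more often than those outside, for CUL4A 23.5 against 9.83%. Whether the split also lowers their ChIP-Seq shares, here or at matched scores, was not tested.

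Since the sets differed in score, they were also compared within 5 score groups of near equal size cut from the whole RepID KO list, a comparison chosen with the values already seen. With the KO-only peaks at origins weighted to the scores of the non-origin peaks, the CDT2 difference was -0.646 points (95% interval -1.72 to 0.429). CDT2 shares lay within 1 point of each other in groups 1 to 3. In group 4 they were 19.0 and 22.3%, a difference of -3.26 points (-6.43 to -0.022), and in group 5, with the highest scores, they were 31.7 and 39.0%, a difference of -7.32 points (-12.9 to -1.39). For H3K9me3 the difference turned around, and non-origin peaks had the higher share, by 3.30 points (1.95 to 4.66). In group 3, with scores of 320 to 412, 18.1% of 1517 non-origin peaks met H3K9me3 and 12.4% of 1042 peaks at origins did, a difference of 5.75 points (2.91 to 8.49). The non-origin share of H3K9me3 was the higher one in all 5 groups, and the interval left out 0 in groups 3 and 4. For CUL4A the weighted difference was -30.3 points (-32.3 to -28.3), for U2OS origins -24.3 points (-26.4 to -22.2) and for H3K4me3 -7.20 points (-8.43 to -5.97). In group 5, which held scores of 652 to 5331, no KO-only non-origin peak exceeded 2410, so scores there are not fully matched.

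**Figure D4:**
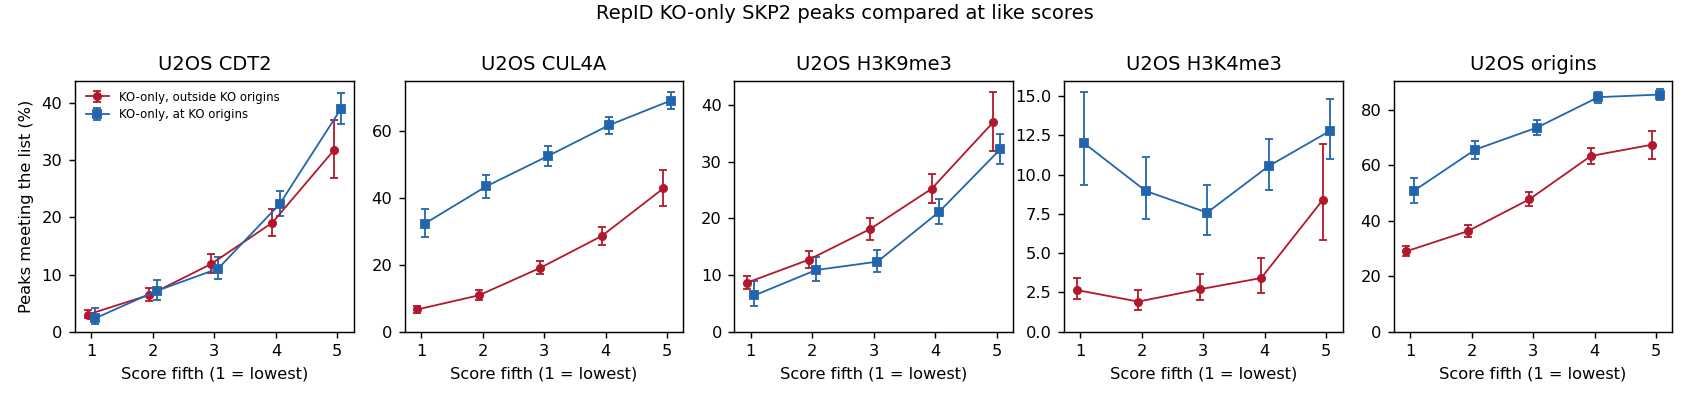
Percentage of SKP2 peaks meeting each U2OS list (vertical axes, which differ between panels) by score group of the whole RepID KO list (horizontal axes, 5 groups of near equal size, 1 is lowest), for KO-only non-origin peaks (red) and KO-only peaks at RepID KO origins (blue), with Wilson 95% confidence intervals. For CDT2 the curves run together in groups 1 to 3 and part to 31.7 and 39.0% in group 5, the red one is higher in each group for H3K9me3, and the blue one is higher in each group for CUL4A, H3K4me3 and U2OS origins.

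Most KO-only non-origin peaks met no U2OS list or a single one, and fewer met several. No list was met by 3138 peaks (45.1%, Wilson 95% confidence interval 44.0 to 46.3%), where the share in the whole RepID KO list was 29.7%. Exactly 1 list was met by 2444 peaks (35.2%, against 32.3% in the whole list) and 2 or more by 1369 (19.7%, against 38.0%). A U2OS origin and nothing else was met by 1811 peaks (26.1%, against 24.0%). H3K9me3 alone was met by 308 peaks (4.43%, against 2.74%), CUL4A alone by 196 (2.82%, against 3.64%) and CDT2 alone by 88 (1.27%, against 1.44%). The combination of CDT2, CUL4A and H3K9me3 was found at 235 peaks (3.38%, against 7.35%), and all 5 lists at 24 (0.345%, against 1.21%). The median score went up with the number of lists met, from 270 with none to 312.5 with 1, 355 with 2, 388 with 3, 453 with 4 and 705 with all 5. Neither pattern was particular to the KO-only non-origin peaks. Of the WT-only peaks outside RepID KO origins, 2835 (49.96%, 48.7 to 51.3%) met no list and 1778 (31.3%, 30.1 to 32.6%) met exactly 1. Their median score within the WT list went from 281 with none to 915 with all 5.

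CDT2, CUL4A and H3K9me3 occurred together. Of the 669 peaks with CDT2, 51.7% (Wilson 95% confidence interval 47.9 to 55.5%) also met H3K9me3, compared with 11.8% (11.0 to 12.6%) of the 6282 without. CUL4A was found at 57.0% (53.2 to 60.7%) of peaks with CDT2 and at 11.2% (10.4 to 12.0%) of those without. U2OS origins were found at 59.6 and 40.2%, a smaller contrast. H3K4me3 was met by 7.62% of the peaks with CDT2 and by 2.36% of the others. In the whole RepID KO list, H3K9me3 met 52.0% of the peaks with CDT2 and 12.2% of those without, and CUL4A met 73.8 and 26.8%, so the same contrasts were seen there. Score differed between these groups in the same direction, and its part in the co-occurrence was not tested.

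The U2OS origins at these peaks were mostly not called in HCT116 RepID KO cells over any of their length. A KO-only non-origin peak was held by 2890 U2OS origins, with a median width of 2600 bp. Elsewhere along them, 478 (16.5%, Wilson 95% confidence interval 15.2 to 17.9%) met a RepID KO origin, whereas 42.2% of all U2OS origins did. The rule removes peaks that lie in a RepID KO origin and so lowers this share, which is given as a description. CUL4A met 23.5% of the 2923 peaks in U2OS origins and 9.83% of the 4028 peaks outside them.

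The mirror set, 5674 WT-only SKP2 peaks outside RepID KO origins, had shares close to these for CUL4A and H3K4me3. CUL4A met 15.6% of KO-only and 14.9% of WT-only peaks, a difference of 0.621 points (Newcombe 95% interval -0.644 to 1.88), and H3K4me3 met 2.86 and 2.96% (difference -0.0980 points, -0.697 to 0.488). CDT2 was found less often at KO-only peaks, at 9.62 against 12.1%, a difference of -2.47 points (-3.57 to -1.38). The KO-only share was the higher one for H3K9me3, by 1.69 points (0.447 to 2.93), and for U2OS origins, by 5.75 points (4.04 to 7.45). These intervals compare single libraries of the genotypes, have no replicate check and are not matched for score. The 356 peaks shared with WT outside origins met CDT2 (31.7%), CUL4A (30.6%) and H3K9me3 (29.2%) more often than the KO-only non-origin peaks, with KO-only minus shared differences of -22.1, -15.1 and -13.6 points and intervals that left out 0. For U2OS origins the KO-only minus shared difference was -0.645 points (-5.96 to 4.52). The shared peaks had a median score of 519, against 297 for the KO-only ones, and these differences were not matched for score.

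All of the 5 peaks with the highest scores lay in a U2OS origin, and 4 of them met CUL4A. Among all KO-only non-origin peaks these shares were 42.1 and 15.6%, and in the highest of their 5 score groups 64.2 and 32.0%. Not all peaks with high scores were alike, since one on chromosome 16 with a score of 1963 met no U2OS list. The highest score, 2410, belonged to a peak on chromosome 15 from 60834499 to 60835232, in hg19 coordinates, which the labels name as the build. It lay 6698 bp from the nearest RepID KO origin and 85740 bp from the nearest WT SKP2 peak, and a U2OS origin of 600 bp was the only U2OS region there. The peak on chromosome 2 from 130066665 to 130067376 had the second highest score (2406). It was wholly inside a CDT2 peak of 1150 bp, a CUL4A region of 1000 bp and a U2OS origin of 1200 bp, and an H3K9me3 peak covered 443 bp of its 712 bp. On chromosome 4 from 71346918 to 71347163, a 246 bp peak with a score of 2079 met CUL4A, H3K9me3 and a U2OS origin and was 89637 bp from any RepID KO origin. The peak on chromosome 8 from 86752956 to 86753280 (score 2023) lay in much broader regions, a CUL4A region of 35600 bp and a U2OS origin of 117200 bp. The last of these, on chromosome 2 from 87828334 to 87828714 (score 1991), met CDT2, CUL4A and a U2OS origin but no H3K9me3.

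Examples of the combinations follow, in each case the peaks with the highest scores. After the chromosome 2 peak above, the next with CDT2, CUL4A and H3K9me3 was on chromosome 18 from 77943511 to 77944270 (score 1893), 1130 bp from a RepID KO origin. CDT2 alone was met on chromosome 7 from 51844339 to 51844598 (score 1123) and on chromosome 1 from 121356234 to 121357133 (score 833). H3K9me3 alone was met on chromosome 16 from 46407581 to 46408188 (score 1923) and on chromosome 17 from 22261132 to 22261498 (score 1577). Both of these H3K9me3 peaks were weak, with the authors' fold enrichment at 1.36 and 1.52 in a list with a median of 4.03.

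The 2 peaks with H3K4me3 that had the highest scores met H3K9me3 as well. Of all 199 peaks with H3K4me3, 62 (31.2%) met H3K9me3, against 15.2% of those without H3K4me3. This contrast was not computed over the whole RepID KO list, so it may not be particular to these peaks. The part of score in it was not tested. On chromosome 4 from 45823663 to 45823908 (score 1721) all 5 lists met, with an H3K9me3 fold enrichment of 10.5 and an H3K4me3 fold enrichment of 3.17. On chromosome 21 from 42709502 to 42709890 (score 1715) the folds were 21.4 and 5.78, and no U2OS origin was called. The peaks with the highest scores among those that met no U2OS list were on chromosome 16 from 46421721 to 46422057 (score 1963) and from 46949299 to 46949864 (score 1787). A peak on chromosome 7 from 93211660 to 93212085 (score 1503) followed the chromosome 15 peak among those with a U2OS origin alone. The widest peak, 3024 bp on chromosome 2 from 41605081 to 41608104, had a score of 445 and met H3K9me3 and a U2OS origin only at its right end, over 197 and 304 bp.

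KO-only non-origin peaks were found on each of the 22 chromosomes, at 2.41 per Mb in all, compared with 1.97 per Mb for WT-only peaks outside origins. Their density was lowest on chromosome 4 (308 peaks, 1.61 per Mb) and chromosome 13 (204 peaks, 1.77 per Mb), and highest on chromosome 19 (219 peaks, 3.70 per Mb) and chromosome 16 (328 peaks, 3.63 per Mb). As a share of the RepID KO SKP2 peaks of a chromosome they ranged from 29.4% on chromosome 22 to 64.4% on chromosome 13, a range that the density of origins helps to set because the rule uses origins. The ratio of KO-only to WT-only peaks, both outside RepID KO origins, was 1.23 over all chromosomes (95% interval 1.18 to 1.27). Depth is unknown, so this ratio is no measure of bound SKP2, but it can be compared between chromosomes. It was 1.72 on chromosome 19 (1.39 to 2.14) and 1.60 on chromosome 16 (1.34 to 1.90), and 0.931 on chromosome 4 (0.797 to 1.09). Chromosome 12 held 298 KO-only and 297 WT-only peaks, with an interval of the ratio from 0.855 to 1.18. The ratio of all KO to all WT SKP2 peaks, origins included, was 1.13 overall. It was 1.24 on chromosome 19, 1.19 on chromosome 16, 0.993 on chromosome 4 and 1.02 on chromosome 12, so the whole lists differed between these chromosomes in the same direction over a narrower range. On the other 18 chromosomes the interval included the overall ratio. The copy number of these chromosomes in the WT and KO cells was not measured in the lists, and its part was not tested.

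**Figure D5:**
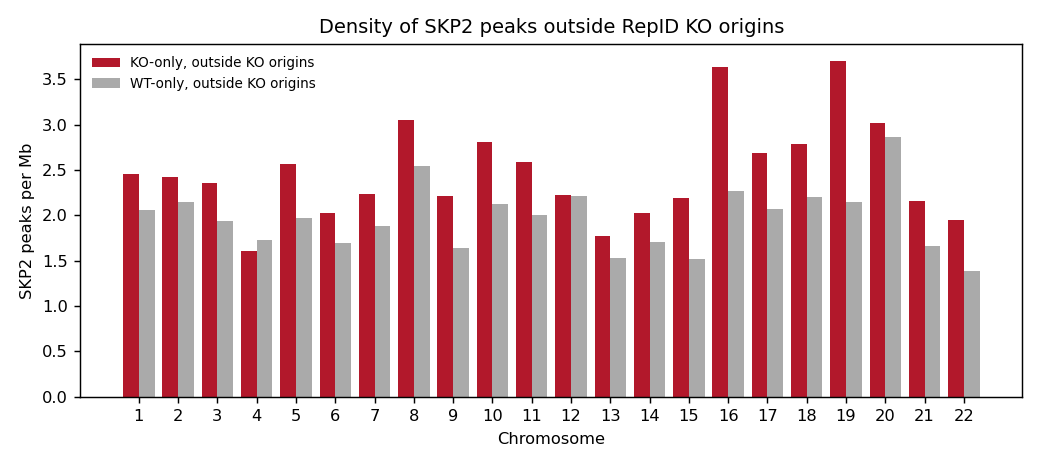
SKP2 peaks per Mb (vertical axis, from 0) on chromosomes 1 to 22 (horizontal axis) for KO-only (red) and WT-only (grey) peaks outside RepID KO origins. The red bars are highest on chromosomes 19 and 16, at 3.70 and 3.63 per Mb, and chromosome 4 is the chromosome with a grey bar above the red one.

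The ratio of KO-only to WT-only peaks was higher in windows where more origins were called. Windows of 5 Mb with at least 1 RepID KO origin were ranked by their number of origins into 5 groups over all chromosomes together, a comparison chosen after the chromosomes had been seen. The group with the fewest origins (4 to 44 per window) held 767 KO-only and 779 WT-only peaks, a ratio of 0.985 (95% interval 0.891 to 1.09). The group with the most (251 to 529 per window) held 1697 and 1219, a ratio of 1.39 (1.29 to 1.50). The groups between had ratios of 1.12, 1.29 and 1.24. Over the same windows, from the fewest origins to the most, the ratio of all KO to all WT peaks was 0.976, 1.11, 1.17, 1.16 and 1.14. With windows ranked within their own chromosome, the ratio of KO-only to WT-only peaks was 1.13 (1.07 to 1.19) in the lower part by origins and 1.29 (1.24 to 1.35) in the upper part. The ratio of all KO to all WT peaks was 1.09 and 1.15 there. Peaks at these same RepID KO origins were removed from both sets, so the ratios by number of origins are a description. With windows that had no origin counted as well, a window held a median of 11 KO-only non-origin peaks (quartiles 7 and 16). Of these 588 windows, 26 held none. The fullest window, on chromosome 11 from 130000001 to 135000000, held 48 of them and 18 WT-only peaks, and the next, on chromosome 12 from 125000001 to 130000000, held 40 and 17. These windows were picked for their KO-only count, so their ratios are a description.

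Counted among themselves, KO-only non-origin peaks were mostly solitary. With gaps of up to 10 kb joined, 6371 of the 6951 peaks (91.7%) stood alone, and there were 260 pairs, 13 clusters of 3, 4 clusters of 4 and 1 of 5. Other SKP2 peaks were not joined, so a peak that stood alone here may lie near one of them. The same count was not made for the other sets. The median spacing between neighbouring KO-only non-origin peaks was 212481 bp. The largest cluster, 5 peaks on chromosome 17 from 22244669 to 22261498, had scores of 1035 to 1733, and 3 of its peaks met H3K9me3 and 1 met CDT2. It ends beside the longest stretch of that chromosome without a region of any of the 8 lists. The 4 peaks on chromosome 15 from 92323180 to 92347126 and the 4 on chromosome 3 from 71668612 to 71682704 had scores of at most 352 and 492 and met no CDT2, CUL4A or H3K9me3.

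On each chromosome, the longest stretch without any region served as a landmark that can be found from the lists alone. Within 2 Mb of it lay 197 KO-only non-origin peaks (2.83%, Wilson 95% confidence interval 2.47 to 3.25%), 2.71% of the WT-only peaks (2.32 to 3.17%) and 3.62% of all RepID KO SKP2 peaks (3.32 to 3.95%). Among the 100 KO-only non-origin peaks with the highest scores, 17 lay there, as did 21 of the 100 highest of the whole RepID KO list. For the 100 highest of the other sets, the count was 21 for KO-only peaks at origins and 7 for WT-only peaks outside origins. It was 17 for peaks shared with WT at origins and 10 for those shared outside origins. H3K9me3 met 14.2% (10.0 to 19.8%) of the 197 and 15.7% (14.8 to 16.6%) of the others, and CDT2 met 13.2% (9.17 to 18.6%) and 9.52% (8.84 to 10.2%), with overlapping intervals for both.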

How the data were processed

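The authors called regions from the reads of each sample, and the deposited lists give their positions, in the build hg19 per the labels. Per the methods, origins and CUL4A regions were called with SICER (windows of 200 bp, gaps of 600 bp, false discovery rates of 0.01 and 1e-05), and CDT2 and SKP2 peaks with MACS2 broad peaks. The deposited lists carry a score of the authors per region whose scale is not stated. The deposited histone lists, although the methods name SICER for them, are laid out as MACS2 writes broad peaks. In them the authors deposited the fold enrichment ratio of each peak, which ranked the regions, and its −log10 q, which was not used. Further columns of the SKP2 lists, of unstated meaning, were not used either. Depth is unknown.

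Regions sharing at least 1 bp were counted as meeting. Shares have Wilson and differences Newcombe 95% intervals, which cover counting error only, and the weighted difference a normal one. No test between samples was possible. The peaks and lists compared were chosen with earlier results of these data known. Sites named are those with the highest scores overall and per combination of lists, the widest, those nearest to the rule's limits, and the densest clusters. Distances count the bases between regions, and positions are counted from 1. The largest position of any list stood for the length of a chromosome. Genes, transcription starts and base composition were planned but not analysed here, since no hg19 genome or annotation was used. The overlap and distance code was tested on simulated regions: of 10041 answers, 0 differed from those of a direct count. Python 3.11.15, NumPy 2.4.6, pandas 2.3.3 and matplotlib 3.10.9 were used.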

Additional observations from a re-analysis of the deposited data

Results flagged for a closer look

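The rule covers chromosomes 1 to 22. On chromosome X, 210 of the 304 SKP2 peaks of RepID KO cells (69.1%) also shared no base with a WT SKP2 peak or a RepID KO origin, and on chromosome Y 10 of 63 (15.9%) did. They stand out because they are a signal in data that no comparison above used.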

How the results depend on the processing

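The differences from KO-only peaks at origins kept their direction, with an interval that left out 0, in 22 of 25 alternatives. The 22 include all those for U2OS origins, whose difference the split by RepID KO origins itself lowers and which is a description. With the stronger 50% of the H3K9me3 list the H3K9me3 difference was -0.132 points, with an interval that included 0. With scores weighted alike, which was added once values were known, the CDT2 difference was -0.646 points and the H3K9me3 difference reversed to 3.30 points. Shares stayed within their main interval in 13 of 35 alternatives, among them 1 kb around each centre and leaving out peaks within 2 Mb of the longest empty stretch, the latter likewise added after seeing the data. With at least 50% of the SKP2 peak covered, CDT2 met 7.77%, H3K9me3 10.9%, H3K4me3 2.29% and U2OS origins 40.4%. A gap of up to 1 kb gave 10.8% for CDT2, 16.5% for CUL4A, 18.8% for H3K9me3, 3.44% for H3K4me3 and 44.7% for U2OS origins. In the stronger 50% of the KO-only non-origin peaks these shares were 15.3, 23.2, 21.1, 3.29 and 53.1%. With the stronger 50% of each partner list they were 5.54, 8.27, 8.06, 1.32 and 24.4%. At least 5 kb from WT peaks and RepID KO origins, CUL4A met 12.7%, H3K4me3 1.88% and U2OS origins 37.9%. The alternatives on genes, transcription starts, base composition and repeats were not run. No paired analysis was possible because there is 1 sample per condition, and no sample could be left out for the same reason. The lists give no depth, so peaks absent from the WT list may have been missed there.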
